A study of Mus musculus with 16 samples.

Results

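Of the 712 genes measured above background in mouse tumours, those that differed between hypoxic and normoxic tumours once the tumour line was allowed for are described here. All 16 tumours of the series were compared, 7 labelled hypoxic against 9 labelled normoxic, with the line held as a block in the model. The 4 groups were 4 hypoxic and 4 normoxic tumours of MC38, a mouse colorectal cancer line, and 3 hypoxic and 5 normoxic tumours of E0771, a mouse breast cancer line. Each tumour grew from 500000 implanted cells mixed with matrigel in the right shoulder, and every mouse, normoxic ones included, was treated with immunotherapy against the checkpoint receptors PD-1 and CTLA-4. Tumours were taken after imaging on day 5 of treatment, and the study imaged hypoxia by PET. The host mice had their own immune cells and stroma, so each sample is a mixture of tumour and host RNA, and no untreated mouse was analysed here. The labels call the status hypoxic or normoxic without giving the oxygen value or the threshold behind it. Tumours are named below by line, status and mouse number. Each tumour of a line has its own mouse number, so the spread within a line is between animals. Numbers 4, 12 and 17 occur in both lines, and the titles do not state whether these are different animals.

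Cells short of oxygen stabilise the transcription factor HIF-1 alpha, encoded by Hif1a, which turns on genes of glycolysis, blood vessel growth and acid handling. Hypoxic regions of tumours are known to hold macrophages and to be poorly reached by T cells, and extracellular adenosine made there dampens T cell responses. Macrophages exposed to the type 2 cytokines IL-4 and IL-13 signal through STAT6 and express a recognisable set of genes, among them the arginase Arg1, the mannose receptor Mrc1 and the chemokines Ccl17, Ccl22 and Ccl24. Interferons act through STAT and IRF factors on a different set, which includes antiviral proteins, the chemokine Cxcl10 and the machinery that loads peptides onto MHC class I.

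Transcripts were counted by hybridisation to barcoded probes of the NanoString panel for mouse cancer immunology, with no amplification step. Before scaling, the tumours held between 180274 and 890239 gene counts, with a median of 531770. The mean difference in gene counts, hypoxic minus normoxic, was -210682 over both lines, and an exact two-sided permutation test of status within line gave p = 0.0735 over 3920 relabellings. 5 tumours held under 350000 counts, of which 4 were hypoxic (MC38 hypoxic 14 and 25, E0771 hypoxic 12 and 22) and 1 was normoxic (E0771 normoxic 65). The mean of the negative-control probes after scaling reached 24.6 in E0771 hypoxic 22 and 17.4 in E0771 hypoxic 12, the least precise tumours for weakly expressed genes. Ptprc, which encodes the CD45 protein of all leukocytes, was measured in every tumour, and its difference relative to the panel was -0.66 log2 units, with an exact permutation p of 0.114 within line. No marker of a cell type named below was at the floor of 1 in any tumour, but being above it does not mean being above background. The eosinophil gene Prg2, for example, read 1.24 in MC38 hypoxic 25 and 11.4 in E0771 hypoxic 12. The negative probes there averaged 5.90 and 17.4.

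How genes are scaled decides what reads as a rise. In the values as deposited, which were scaled on 20 housekeeping genes, the median gene of the panel was lower in hypoxic tumours by 0.84 log2 units (exact permutation p = 0.0115). The log2 panel median was 7.77 ± 0.54 (SD, n = 4) in MC38 normoxic and 6.54 ± 0.43 (SD, n = 4) in MC38 hypoxic tumours. In E0771 it was 7.32 ± 0.56 (SD, n = 5) in normoxic and 6.86 ± 0.62 (SD, n = 3) in hypoxic tumours. Each tumour was therefore centred on its own panel median, and a level is given below as a multiple of that median, computed after adding 1 to each signal. On this scale the housekeeping genes themselves were higher in hypoxic tumours, by a median of 0.85 log2 units over the 20, against -0.01 as deposited. A gene that moved with the housekeeping genes therefore reads as higher relative to the panel, and the 12 largest rises are given on both scales below. Multiples are not compared between genes, since probes differ in efficiency. MC38 normoxic 10 and E0771 hypoxic 22 stood apart from their groups, with log2 panel medians of 7.01 and 7.52, close to those of the opposite status in their line. E0771 normoxic 17 and normoxic 4 were also low, at 6.62 and 6.80, near E0771 hypoxic 55 at 6.77.

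**Figure D1:**
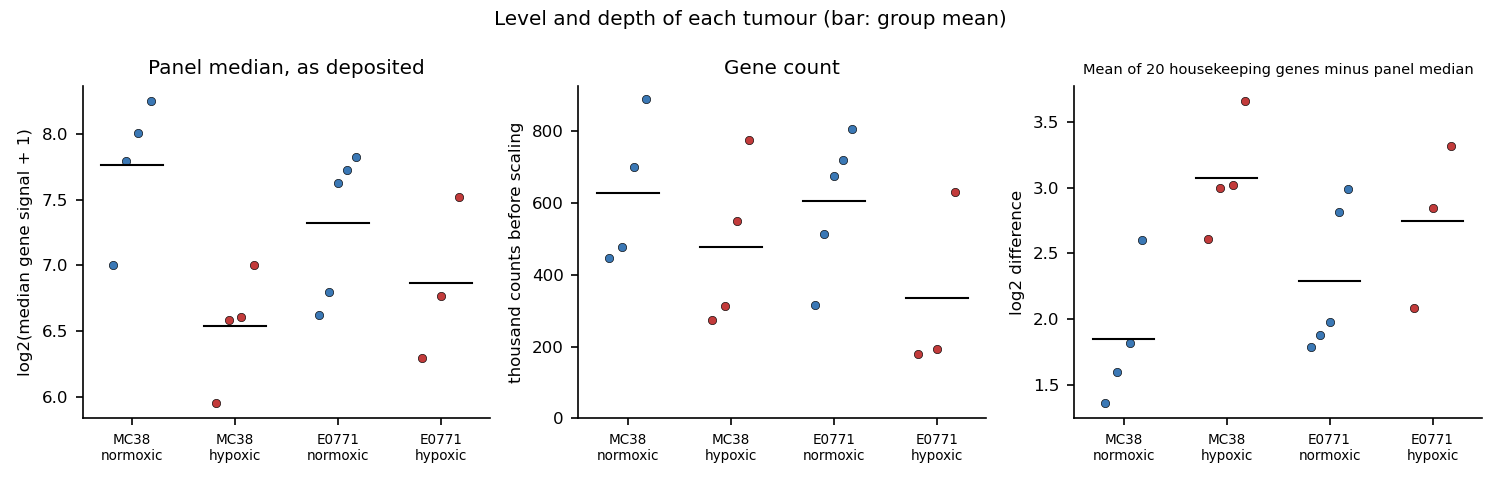
Left, log2 of the median gene signal plus 1 of each tumour as deposited. Middle, gene counts before scaling. Right, mean log2 level of the 20 housekeeping genes minus the panel median. Points are tumours (blue normoxic, red hypoxic) and bars are group means; the left panel shows the lower medians of hypoxic MC38 tumours, with MC38 normoxic 10 and MC38 hypoxic 17 at the same height.

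Relative to the panel, 133 of 712 genes (18.7%) differed between hypoxic and normoxic tumours in the block fit at an adjusted p under 0.05 (limma, Benjamini-Hochberg). Of these, 86 genes (12.1%) were higher and 47 genes (6.6%) were lower in hypoxic tumours. In order of size, the 12 largest falls were those of Ccl24, Ccl17, Chil3, Cd209e, Arg1, Fcgr3, Ccl19, Hsd11b1, Ccr3, Ccl9, Ccl11 and Cd2. The 12 largest rises were those of Myc, Cxcl10, Rsad2, Dusp4, Msln, Ifi35, Oasl1, Cxcl11, Tnfrsf12a, Col4a1, Bst2 and C1qbp. Counts of list members below stand against these shares of 12.1% higher and 6.6% lower. The same fit on the values as deposited called 258 genes (36.2%), of which 254 (35.7%) were lower and 4 (0.562%) higher. All 47 genes lower relative to the panel were also lower there, by a median of 2.08 log2 units, whereas of the 86 higher ones only Myc, Dusp4, Ifi35 and Nfkb2 also passed as deposited. For 81 of the 86 the deposited difference was above 0, the exceptions being Ikbkg, Mapk14, Smad4, Il15ra and Kdr, and the median over the 86 was 0.28. Higher genes were thus 64.7% of the calls relative to the panel and 1.55% of the calls as deposited.

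Whether the changes were shared by both lines could be read only in part, since E0771 taken alone gave no call. With the means of the 4 groups fitted separately, 201 genes (28.2%) passed in MC38, 93 higher (13.1%) and 108 lower (15.2%), and 0 genes (0.0%) passed in E0771. The smallest adjusted p in E0771 was 0.397, and 78 genes (11.0%) had an unadjusted p under 0.05 there, 45 of them higher. Of the 133 genes of the block fit 132 had the same sign in both lines, against 494 of all 712 (69.4%), but the fit chose them on both lines together, so this is a description. The exception was Pdcd1lg2 (PD-L2, a ligand of PD-1), with -2.45 ± 0.49 (SE) in MC38 and 0.02 ± 0.51 in E0771. The MC38 difference was the larger for 115 of the 133. Median differences were 1.50 in MC38 and 0.86 in E0771 for the higher genes, and -1.49 and -0.87 for the lower genes.

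The MC38 and E0771 contrasts share no tumour, so genes called in MC38 could be read in E0771. Of the 93 genes higher in MC38, 89 had a difference above 0 in E0771, where 56.9% of all genes did, and 12 had an unadjusted p under 0.05. Of the 108 lower in MC38, 65 were below 0 in E0771, where 43.1% of all genes were, and 10 had an unadjusted p under 0.05. Over the 712 genes the differences in both lines had a Pearson correlation of 0.466; genes are not independent replicates, and the values share each tumour's centring. The difference between lines itself was tested as an interaction, in which 0 genes (0.0%) passed in limma and 92 had an unadjusted p under 0.05.

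**Figure D2:**
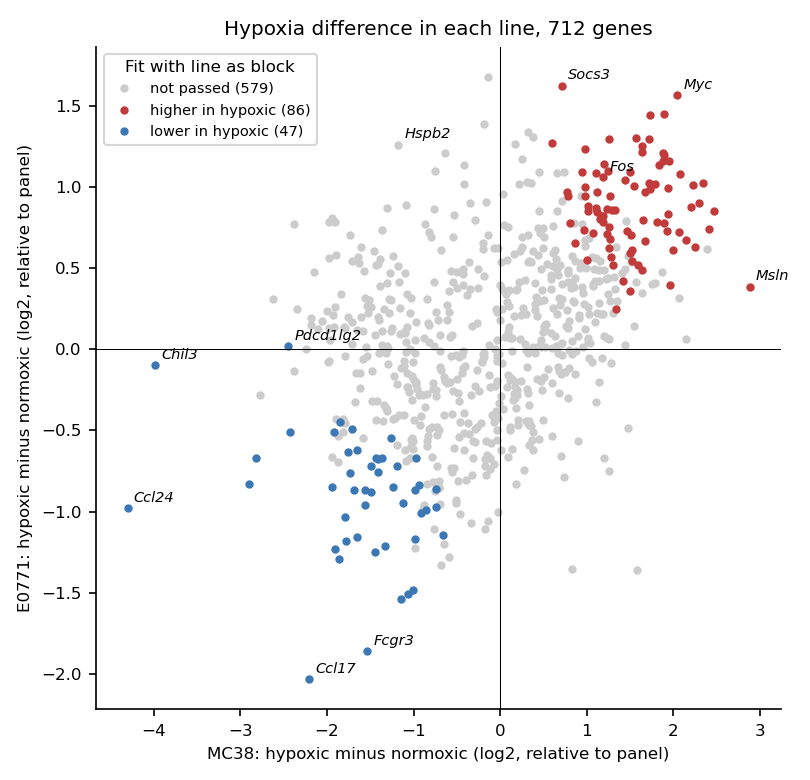
Hypoxic minus normoxic log2 difference in MC38 (x) and in E0771 (y), relative to the panel median, for the 712 tested genes; red points are the 86 genes higher and blue points the 47 lower in the block fit, grey the 579 not passed. Coloured points lie in the quadrants of equal sign, except Pdcd1lg2, and reach farther along the MC38 axis. As deposited, 82 of the 86 red genes did not pass.

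Ccl17, a chemokine that draws cells bearing the receptor Ccr4, had the smallest adjusted p of all genes. It measured 0.0868, 0.129, 0.167 and 0.0965 times the panel median in MC38 hypoxic 12, 14, 17 and 25, against 1.01, 0.621, 0.209 and 0.624 times in MC38 normoxic 4, 7, 10 and 21. In E0771 hypoxic 12, 22 and 55 it measured 0.361, 0.158 and 0.575 times the median, and 1.13, 0.627, 1.84, 3.61 and 0.817 times in E0771 normoxic 4, 17, 38, 65 and 71. Hypoxic tumours lay below every normoxic tumour of their own line, in both lines. Ccl17 fell by 2.12 ± 0.38 (SE) log2 units, 4.35-fold, with an adjusted p of 0.00652 in limma. The difference was -2.21 ± 0.53 in MC38 and -2.03 ± 0.55 in E0771. Ccl17 was under 2 times the mean of the negative probes in 4 tumours, all hypoxic (MC38 hypoxic 14 and 25, E0771 hypoxic 12 and 22). Together with Ccl19 it was 1 of only 2 genes that passed in all 16 fits that left out a tumour.

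Ccl22, the other ligand of Ccr4, also fell. Its level was 0.325, 0.281, 0.413 and 0.337 times the panel median in the 4 hypoxic MC38 tumours and 1.21, 1.06, 0.427 and 1.27 times in the 4 normoxic ones, in the same order of mice, which is kept throughout. In E0771 it was 0.564, 0.598 and 0.745 times in the hypoxic and 2.61, 0.599, 2.52, 1.31 and 1.46 times in the normoxic tumours. The groups did not overlap in MC38, and in E0771 only normoxic 17 reached down to the hypoxic range. Ccl22 fell by 1.35 ± 0.31 log2 units (limma, adjusted p = 0.0193), with -1.44 in MC38 and -1.25 in E0771. Ccr4 itself had a difference of -1.14 and did not pass.

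Ccl24, an eosinophil-attracting chemokine that binds Ccr3, had the largest fall. The 4 hypoxic MC38 tumours measured 0.129, 0.112, 0.228 and 0.197 times the panel median, against 62.9, 1.6, 1.25 and 0.78 times in the normoxic ones. E0771 tumours measured 0.448, 0.178 and 0.483 times when hypoxic and 1.47, 0.379, 1.41, 0.568 and 0.295 times when normoxic. MC38 groups were separate, with MC38 normoxic 4 far above all other tumours, and E0771 groups overlapped. Ccl24 fell by 2.70 ± 0.70 log2 units (limma, adjusted p = 0.0200), by 4.30 ± 0.87 in MC38, while the E0771 difference was -0.98 ± 0.90 and did not pass. Leaving out each tumour in turn, the difference ran from -3.03 to -1.88. MC38 hypoxic 14 and 25 and E0771 hypoxic 12 and 22 read Ccl24 at under 2 times the mean of their negative probes.

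Arg1, the arginase that depletes arginine, also fell. It measured 3.65, 3.33, 14.7 and 1.82 times the panel median in hypoxic and 175, 15.4, 24.2 and 12.3 times in normoxic MC38 tumours. In E0771 the values were 3.87, 2.93 and 11.4 times in hypoxic and 1.91, 9.95, 18, 7.45 and 13.2 times in normoxic tumours. MC38 hypoxic 17 reached into the normoxic range, and the E0771 groups overlapped. The fall was 1.78 ± 0.58 log2 units (limma, adjusted p = 0.0353), from -2.82 in MC38 and -0.67 in E0771, and it passed in 8 of the 16 fits that left out a tumour. Chil3, a chitinase-like protein secreted by macrophages, fell by 2.11 ± 0.70 (adjusted p = 0.0391), with -3.99 in MC38 and -0.10 in E0771, and Mrc1 fell by 1.24 ± 0.43 (adjusted p = 0.0485).

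**Figure D3:**
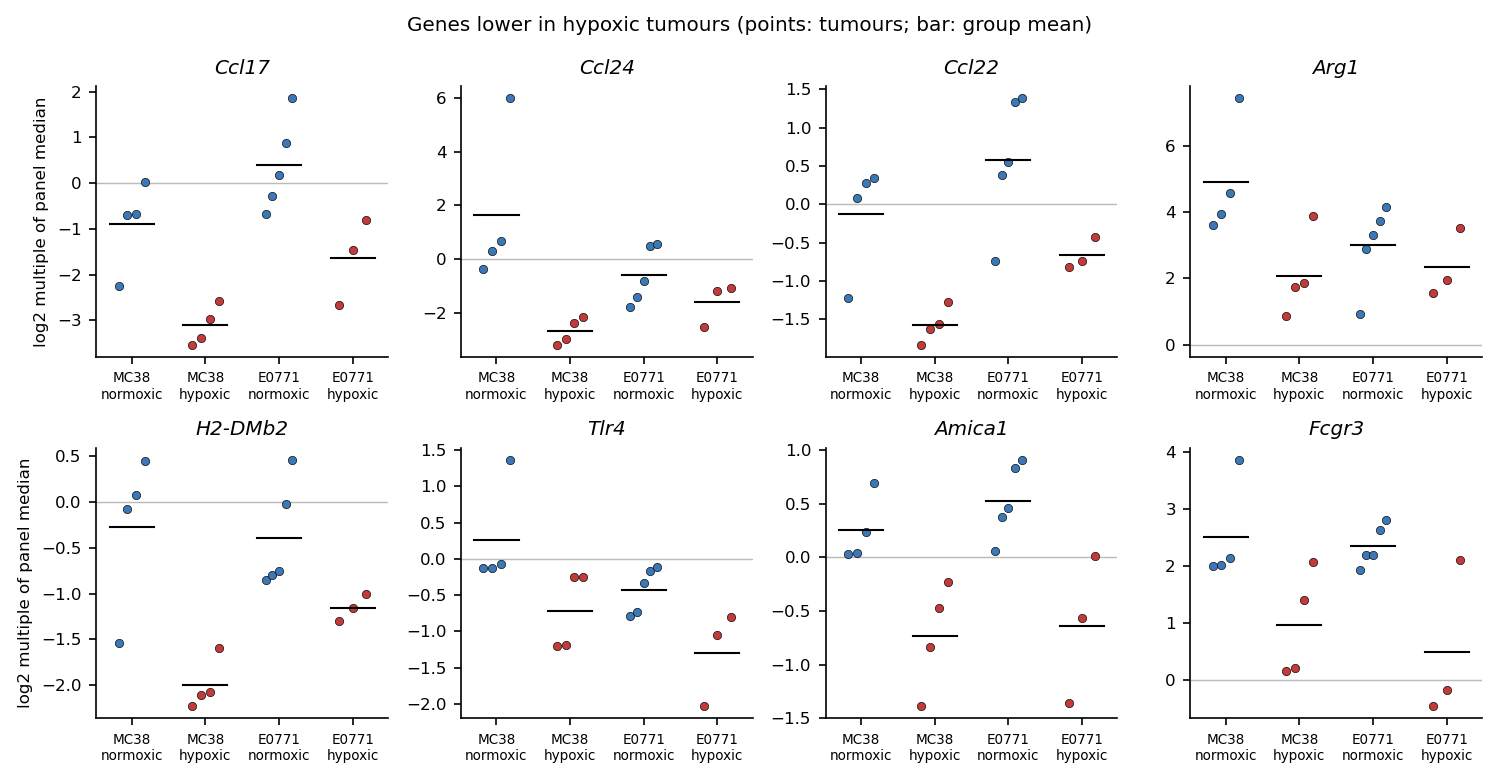
Log2 multiple of the panel median in each tumour (points; blue normoxic, red hypoxic) for 8 genes that fell in hypoxic tumours; bars are group means. Hypoxic and normoxic tumours are separate in both lines for Ccl17, H2-DMb2, Tlr4 and Amica1, whereas Arg1 and Ccl24 overlap in E0771. All 8 were also lower as deposited.

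Of 11 genes listed for alternatively activated macrophages 7 fell and 0 rose (Arg1, Chil3, Mrc1, Ccl24, Ccl17, Ccl22 and Pdcd1lg2), against 6.6% of all tested genes. Their median difference was -1.35 relative to the panel and -2.20 as deposited, where all genes had -0.05 and -0.90. By line the median was -2.21 in MC38 and -0.28 in E0771. Cd163, a scavenger receptor, had -1.57 (adjusted p = 0.0551), and Il4ra and Stat6, the receptor chain and factor of IL-4 signalling, had -0.35 and 0.58, none of which passed. Of the macrophage markers Cd68, Csf1r, Msr1 and Cd14 none passed, and their summed level was 17.4 to 34.2 times the panel median in hypoxic and 21.2 to 63.9 times in normoxic MC38 tumours. In E0771 the sum was 24.4 to 34.2 times in hypoxic and 23.3 to 45.2 times in normoxic tumours. In these bulk samples, fewer cells of a type and less RNA per cell cannot be told apart.

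The promoters of the 3 fallen genes with the largest change among those with an entry are shown, chosen by size of change alone. They are the 250 bases before the gene's start from RefSeq (GRCm38.p6), written 5′ to 3′ on the gene's strand. Capitals mark the half-sites and spacing that STAT6 is known to bind, TTC, any 4 bases and GAA, which read the same on both strands. Ccl17 lies on the plus strand at chr8:94810203-94810452, Chil3 on the minus strand at chr3:106167565-106167814 and Cd209e on the minus strand at chr8:3854287-3854536.
Ccl17: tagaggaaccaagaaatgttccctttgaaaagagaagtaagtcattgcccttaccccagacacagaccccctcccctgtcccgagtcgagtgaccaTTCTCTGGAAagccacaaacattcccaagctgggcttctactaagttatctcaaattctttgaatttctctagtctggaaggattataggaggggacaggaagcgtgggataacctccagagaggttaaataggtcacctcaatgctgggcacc
Chil3: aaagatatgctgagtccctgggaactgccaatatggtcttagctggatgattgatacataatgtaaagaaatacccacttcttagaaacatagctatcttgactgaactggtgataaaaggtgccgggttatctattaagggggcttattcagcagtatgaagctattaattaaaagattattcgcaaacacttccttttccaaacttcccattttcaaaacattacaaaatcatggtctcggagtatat
Cd209e: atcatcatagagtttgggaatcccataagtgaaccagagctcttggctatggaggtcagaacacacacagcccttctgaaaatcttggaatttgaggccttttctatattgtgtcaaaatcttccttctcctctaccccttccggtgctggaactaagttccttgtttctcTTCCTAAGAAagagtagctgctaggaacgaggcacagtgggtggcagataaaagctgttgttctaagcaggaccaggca
The letters occurred once in Ccl17, at position -154 from the start, once in Cd209e, at -79, and not in this window of Chil3. They were in 5.85% of 32851 promoter windows of this length, in 5 of the 35 fallen genes with an entry (14.3%), in 2 of 67 risen genes (2.99%) and in 30 of 433 genes that did not pass (6.93%). A match of these letters is a description of the sequence.

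Several genes of the eosinophil and mast cell list also fell, with the larger differences in MC38 for Ccr3, Ccl11 and Ccl24. Ccr3, the eotaxin receptor carried by eosinophils, fell by 1.50 ± 0.42 log2 units (limma, adjusted p = 0.0246), with -2.42 in MC38 and -0.51 in E0771. Ccl11, an eotaxin that binds Ccr3, fell by 1.43 ± 0.36 (adjusted p = 0.0193), with -1.80 in MC38 and -1.03 in E0771. The mast cell tryptase Tpsab1 fell by 1.29, whereas the mast cell genes Ms4a2 and Kit had 0.25 and -0.06 and did not pass. With Ccl24, 4 of 10 listed genes fell and 0 rose, against 6.6% of all tested genes that fell, with a median of -1.17 relative to the panel. Prg2, which encodes the major basic protein of eosinophil granules, had -2.62 in MC38 and 0.31 in E0771 and did not pass in the block fit. In every hypoxic E0771 tumour Prg2 was under 2 times the mean of the negative probes. The summed level of Prg2, Ccr3 and Il5ra was 1.41 to 5.76 times the panel median in normoxic and 0.367 to 0.951 times in hypoxic MC38 tumours, which did not overlap. In E0771 the sum was 0.465 to 1.16 times in normoxic and 0.329 to 0.962 times in hypoxic tumours. The part of these markers in the falls was not tested.

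Among dendritic cell genes 4 of 13 fell and 0 rose, where 6.6% of all tested genes fell. Cd209e, a C-type lectin of the DC-SIGN family, fell by 1.90 ± 0.56 (adjusted p = 0.0276), Itgae, the integrin chain CD103, by 1.23 and Irf4, a transcription factor of dendritic cells and lymphocytes, by 1.12. For Cd209e the groups were separate in MC38 and overlapped in E0771. Its signal was 4.97 in MC38 hypoxic 25 and 4.56 in E0771 hypoxic 12, below the means of their negative probes (5.90 and 17.4). Ccr7, the receptor that guides mature dendritic cells and naive T cells to lymph nodes, fell by 0.80. Ccl19, a ligand of Ccr7, fell by 1.59 ± 0.31 (limma, adjusted p = 0.0129), with -1.86 in MC38 and -1.29 in E0771. Its level was 0.248, 0.23, 0.29 and 0.277 times the panel median in hypoxic and 0.985, 1.72, 0.377 and 1.27 times in normoxic MC38 tumours. In E0771 it was 0.158, 0.331 and 0.165 times in hypoxic and 0.651, 0.323, 0.643, 0.631 and 0.371 times in normoxic tumours. Only E0771 hypoxic 22 crossed into the normoxic range, just above normoxic 17, and E0771 hypoxic 12 read Ccl19 below the mean of its negative probes. The dendritic cell markers Flt3, Itgax and Xcr1 did not pass, and their sum was 0.421 to 0.744 times the panel median in hypoxic against 0.704 to 1.81 times in normoxic MC38 tumours, and 0.846 to 1.62 against 0.921 to 1.34 times in E0771.

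Only 5 genes (0.702% of those tested) had hypoxic and normoxic tumours that did not overlap in either line and moved the same way: Ccl17, Amica1, H2-DMb2 and Tlr4 lower and Fos higher. In MC38 alone 143 genes (20.1%) did not overlap, and in E0771 alone 17 (2.39%). H2-DMb2 encodes a chain of the protein that exchanges peptides on MHC class II. It measured 0.231, 0.213, 0.331 and 0.237 times the panel median in hypoxic and 1.37, 1.06, 0.343 and 0.949 times in normoxic MC38 tumours. In E0771 it measured 0.448, 0.407 and 0.497 times in hypoxic and 1.38, 0.553, 0.986, 0.593 and 0.575 times in normoxic tumours. The fall was 1.26 ± 0.31 log2 units (limma, adjusted p = 0.0193). It was the 1 of 9 MHC class II genes that fell, where 6.6% of all tested genes did. H2-Aa, H2-Eb1 and Ciita, the class II transactivator, had -0.65, -0.78 and -0.54 and did not pass. H2-Ab1 and H2-DMb1 had -0.14 and 0.04 and did not pass either.

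Amica1, an adhesion molecule of leukocytes also called JAML, had differences of -0.98 ± 0.37 in MC38 and -1.17 ± 0.38 in E0771. Its levels were 0.851, 0.383, 0.721 and 0.558 times the panel median in hypoxic and 1.62, 1.03, 1.03 and 1.18 times in normoxic MC38 tumours. In E0771 they were 0.39, 0.675 and 1.01 times in hypoxic and 1.38, 1.04, 1.88, 1.29 and 1.79 times in normoxic tumours. The gap was narrow in E0771, between hypoxic 55 and normoxic 17, and the block fit gave a fall of 1.07 ± 0.26 (adjusted p = 0.0193). Tlr4, the receptor for bacterial lipopolysaccharide, fell by 0.93 ± 0.29 (adjusted p = 0.0289). Its levels were 0.843, 0.433, 0.844 and 0.438 times the panel median in hypoxic and 2.58, 0.952, 0.919 and 0.919 times in normoxic MC38 tumours. In E0771 they were 0.245, 0.484 and 0.575 times in hypoxic and 0.889, 0.793, 0.929, 0.581 and 0.602 times in normoxic tumours, again without overlap.

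Fcgr3, a low-affinity receptor for IgG on myeloid and NK cells, fell by 1.69 ± 0.39 (limma, adjusted p = 0.0193), with -1.54 in MC38 and -1.86 in E0771. It measured 2.64, 1.16, 4.22 and 1.12 times the panel median in hypoxic and 14.5, 4.04, 3.99 and 4.41 times in normoxic MC38 tumours. Its E0771 levels were 0.884, 0.732 and 4.31 times in hypoxic and 4.58, 3.79, 6.99, 4.6 and 6.22 times in normoxic tumours. 1 hypoxic tumour of each line, MC38 hypoxic 17 and E0771 hypoxic 55, lay within the normoxic range. Without the 5 tumours under 350000 counts its difference was -0.58. Fcgr2b, the inhibitory IgG receptor, fell by 1.05. The mouse myeloid chemokines Ccl9, Ccl6 and Ccl8 fell by 1.49, 1.20 and 1.12, and Ccr2, the receptor by which monocytes leave the bone marrow, fell by 0.96. Cd55, a regulator of complement, fell by 1.28, and C1qbp, a mitochondrial protein named for its binding to C1q, rose by 1.56 relative to the panel and had 0.71 as deposited, where it did not pass. Hsd11b1, an enzyme that regenerates active glucocorticoid, fell by 1.58 ± 0.39 (adjusted p = 0.0193).

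Among 16 T cell genes 2 fell, where 6.6% of all tested genes did. Cd2 and Cd5, surface molecules of T cells, fell by 1.41 and 0.96, and Cd3d, Cd3e and Cd4 had -0.40, -0.40 and -0.56 and did not pass. Of 15 CD8 and cytotoxic genes only Cd8b1, the beta chain of CD8, fell, by 1.10 ± 0.28 (adjusted p = 0.0193); Cd8a had -0.47, Gzmb -0.11 and Ifng -0.67. Cd2 was read at under 2 times the mean of the negative probes in 5 tumours, all of them hypoxic. The 5 T cell markers summed to 2.12 to 3.65 times the panel median in hypoxic and 3.03 to 4.93 times in normoxic MC38 tumours, and to 2.35 to 5.05 and 2.01 to 14.3 times in E0771. Of 17 checkpoint genes, Pdcd1lg2, Btla and Cd160 fell, while Pdcd1 (PD-1), Cd274 (PD-L1) and Ctla4 had -0.31, 0.32 and -0.70 and did not pass. Among 11 regulatory T cell genes Tnfrsf18, which encodes GITR, fell by 1.03 and Foxp3 had -0.38. No B cell gene of 10 and no common leukocyte gene of 8 passed, with medians of -0.64 and -0.47.

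Myc, the growth-promoting transcription factor, had the largest rise relative to the panel. It measured 19.2, 17.6, 11.7 and 34.6 times the panel median in hypoxic and 1.55, 4.69, 11.6 and 5.65 times in normoxic MC38 tumours. The E0771 levels were 82.3, 21.2 and 37.8 times in hypoxic and 16.2, 50.9, 3.62, 11.1 and 14.4 times in normoxic tumours. MC38 hypoxic 17 and normoxic 10 were nearly equal, and E0771 normoxic 17 lay inside the hypoxic range. Myc rose by 1.81 ± 0.46 log2 units, 3.51-fold (limma, adjusted p = 0.0193), with 2.04 in MC38 and 1.56 in E0771, and by 0.96 as deposited (adjusted p = 0.0349). Myc passed in 14 of the 16 fits that left out a tumour.

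Dusp4, a phosphatase that acts on MAP kinases and is induced by them, rose alongside. Its levels were 6.48, 5.83, 5.58 and 7.42 times the panel median in hypoxic and 0.844, 1.28, 4.7 and 1.65 times in normoxic MC38 tumours. In E0771 they were 15.2, 5.74 and 8.29 times in hypoxic and 4.6, 9.68, 1.01, 2.61 and 3.27 times in normoxic tumours. Again MC38 normoxic 10 and E0771 normoxic 17 were the high normoxic tumours. Dusp4 rose by 1.67 ± 0.40 (adjusted p = 0.0193), and by 0.82 as deposited (adjusted p = 0.0341). Fos, an immediate early gene of the AP-1 factor, rose by 1.13 ± 0.28 (limma, adjusted p = 0.0193), with 1.19 in MC38 and 1.06 in E0771, and had 0.27 as deposited, where it did not pass. It measured 9.96, 11.5, 4.85 and 8.05 times the panel median in hypoxic and 4.05, 2.61, 3.71 and 4.21 times in normoxic MC38 tumours. Levels in E0771 were 6.95, 10.4 and 6.28 times in hypoxic and 2.68, 3.67, 2.33, 4.8 and 6.24 times in normoxic tumours. Hypoxic 55 and normoxic 71 of E0771 nearly met. Of 14 growth and MAPK genes 4 rose, the last being the kinase Map2k1 with 1.01 (not called higher as deposited), and 0 fell. On the same scale 12.1% of all tested genes and 7 of the 20 housekeeping genes rose. Jun and Egr1 had 1.07 and 1.12 and did not pass.

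**Figure D4:**
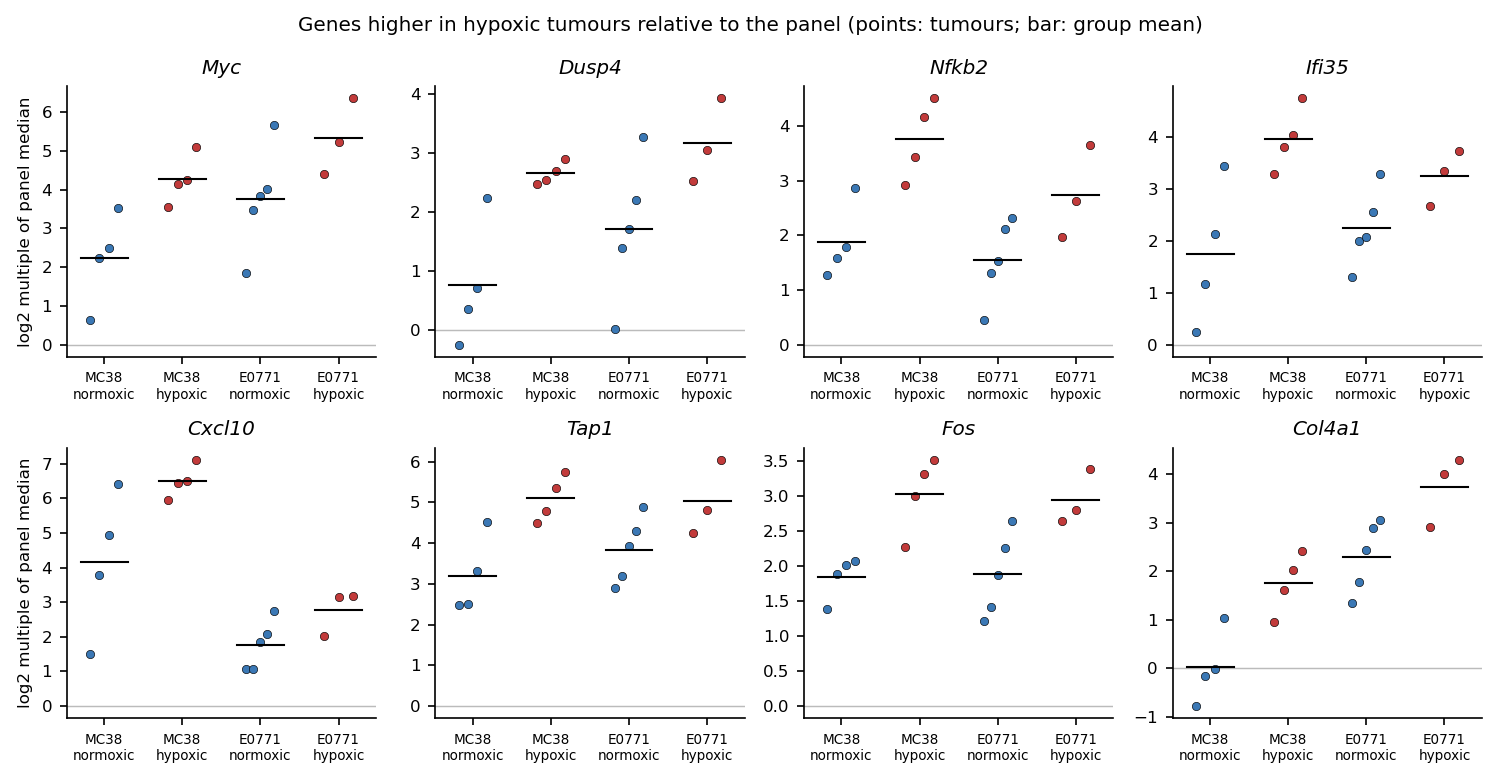
Log2 multiple of the panel median in each tumour (points; blue normoxic, red hypoxic) for 8 genes that rose in hypoxic tumours relative to the panel; bars are group means. The hypoxic group means are higher in both lines for all 8. Only Myc, Dusp4, Nfkb2 and Ifi35 were also higher at an adjusted p under 0.05 in the values as deposited; the other 4 had positive deposited differences that did not pass.

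Of 22 type I interferon response genes 10 rose and 0 fell relative to the panel, where 12.1% of all tested genes and 7 of the 20 housekeeping genes rose. The list median was 1.03, whereas as deposited the median was 0.17 and only Ifi35 passed. Ifi35, an interferon-induced leucine zipper protein, rose by 1.64 ± 0.41 (limma, adjusted p = 0.0193), and by 0.79 as deposited (adjusted p = 0.0321). It measured 14.1, 16.4, 9.8 and 27 times the panel median in hypoxic and 1.18, 2.24, 10.9 and 4.41 times in normoxic MC38 tumours. E0771 tumours gave 13.4, 6.41 and 10.2 times in hypoxic and 5.91, 9.85, 2.46, 4.2 and 4.02 times in normoxic tumours. MC38 normoxic 10 and E0771 normoxic 17 again lay within the hypoxic range. Rsad2 (viperin), Oasl1, Bst2 (tetherin) and Oas3, all antiviral proteins, rose by 1.69, 1.62, 1.57 and 1.53 relative to the panel, with 0.83, 0.77, 0.71 and 0.68 as deposited, where they did not pass. Isg15, a ubiquitin-like modifier, rose by 1.47 (0.61 as deposited, not passed) but passed in only 4 of the 16 fits that left out a tumour. Ifit3, by contrast, had 1.28 in MC38 and -0.81 in E0771 and did not pass.

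Cxcl10, a chemokine that draws T cells bearing Cxcr3, had its highest levels in MC38 tumours. It measured 91.3, 62.1, 88 and 139 times the panel median in hypoxic and 2.82, 13.9, 85.2 and 31.1 times in normoxic MC38 tumours. In E0771 the levels were 8.98, 4.08 and 8.96 times in hypoxic and 2.12, 6.71, 2.11, 3.59 and 4.21 times in normoxic tumours. MC38 normoxic 10 lay within the range of the hypoxic MC38 tumours, and E0771 normoxic 17 and 71 within that of E0771. Cxcl10 rose by 1.71 ± 0.49 (limma, adjusted p = 0.0253), with 2.35 in MC38 and 1.02 in E0771, and its deposited difference of 0.85 had an adjusted p of 0.0991. Cxcl11, another Cxcr3 ligand, rose by 1.60 (0.75 as deposited, not passed), and Cxcl9, the third, had 0.66 and did not pass. Of 16 interferon gamma response genes 6 rose, where 12.1% of all tested genes and 7 of the 20 housekeeping genes rose. The median of the interferon gamma list was 0.67 relative to the panel and -0.18 as deposited. Gbp2b, a guanylate-binding protein, was the 1 member that fell, by 1.41 ± 0.37 (adjusted p = 0.0193).

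For the 3 risen genes with the largest change among those with a promoter entry, the 250 bases before the start are given in the same way. All 3 are known as interferon-induced genes. Capitals mark GAAA, any 2 bases and GAAA, the core letters of the interferon-stimulated response element, searched on both strands. Cxcl10 lies on the minus strand at chr5:92348890-92349139, Rsad2 on the minus strand at chr12:26456453-26456702 and Ifi35 on the plus strand at chr11:101448162-101448411.
Cxcl10: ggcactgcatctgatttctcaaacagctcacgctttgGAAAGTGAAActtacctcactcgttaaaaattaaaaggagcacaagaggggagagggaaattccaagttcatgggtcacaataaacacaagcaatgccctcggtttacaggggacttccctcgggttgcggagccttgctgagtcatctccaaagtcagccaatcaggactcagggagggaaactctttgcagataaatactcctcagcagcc
Rsad2: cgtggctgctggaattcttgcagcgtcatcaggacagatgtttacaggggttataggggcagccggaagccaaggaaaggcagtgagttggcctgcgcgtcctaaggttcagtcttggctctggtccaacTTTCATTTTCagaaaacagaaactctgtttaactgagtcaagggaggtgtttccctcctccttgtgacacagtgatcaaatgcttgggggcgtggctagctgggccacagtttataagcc
Ifi35: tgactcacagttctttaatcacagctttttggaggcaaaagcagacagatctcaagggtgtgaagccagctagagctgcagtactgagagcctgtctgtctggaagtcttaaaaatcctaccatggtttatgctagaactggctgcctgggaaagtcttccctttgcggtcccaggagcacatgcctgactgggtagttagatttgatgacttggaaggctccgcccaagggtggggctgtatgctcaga
The letters occurred once in Cxcl10, at position -213, and once in Rsad2, at -120 on the opposite strand, and not in this window of Ifi35. They were in 2.98% of the 32851 windows, in 6 of 67 risen genes with an entry (8.96%), in 4 of 35 fallen genes (11.4%) and in 32 of 433 that did not pass (7.39%). The share among risen genes was thus close to that of the panel genes that did not pass. The core of the hypoxia response element, ACGTG on either strand, was in none of the 6 windows shown. It was in 16.6% of all windows, in 12 of 67 risen (17.9%), 3 of 35 fallen (8.57%) and 67 of 433 other genes (15.5%).

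Relative to the panel, 7 of 12 genes of MHC class I presentation rose and 0 fell, where 12.1% of all tested genes rose, with a median of 0.99, whereas as deposited the median was 0.13 and 0 passed. The 7 were the heavy chain H2-D1, the peptide transporters Tap1 and Tap2, the loading factor Tapbp and the immunoproteasome subunits Psmb8, Psmb9 and Psmb10. Tap1 measured 27.8, 40.7, 22.4 and 54.1 times the panel median in hypoxic and 5.54, 5.71, 23 and 9.88 times in normoxic MC38 tumours. In E0771 it measured 66.1, 19.1 and 28 times in hypoxic and 9.1, 29.6, 7.41, 19.7 and 15.3 times in normoxic tumours. Groups overlapped in both lines through MC38 normoxic 10 and E0771 normoxic 17 and 65. Tap1 rose by 1.56 ± 0.38 (limma, adjusted p = 0.0193), and its deposited difference of 0.70 had an adjusted p of 0.0509. All 12 genes had the same sign in both lines, with medians of 1.29 in MC38 and 0.71 in E0771. The 20 housekeeping genes, 7 of which rose relative to the panel, had 1.24 and 0.46.

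Some NF-kB factors rose relative to the panel, and the receptor Tlr4 fell. In the list of NF-kB and Toll-like receptor members, 30 in all, 7 rose and 2 fell, where 12.1% and 6.6% of all tested genes did. Of the 20 housekeeping genes 7 rose. The list median of 0.37 relative to the panel was -0.49 as deposited. Nfkb2, Rela and Relb, subunits of NF-kB, rose by 1.55, 1.52 and 1.10, with 0.70, 0.66 and 0.24 as deposited, while Nfkb1 and Rel had 0.74 and -0.03 and did not pass. The kinase Chuk rose by 1.08 (0.22 as deposited), and the fallen members were Tlr4 and Irak3, an inhibitor of Toll-like receptor signalling, by 1.05. Nfkb2 measured 10.9, 17.9, 7.56 and 22.9 times the panel median in hypoxic and 2.43, 3.01, 7.31 and 3.43 times in normoxic MC38 tumours. Its E0771 levels were 12.6, 6.16 and 3.93 times in hypoxic and 2.89, 4.97, 1.36, 4.32 and 2.47 times in normoxic tumours. MC38 groups were separate by a small margin between hypoxic 17 and normoxic 10. As deposited Nfkb2 rose by 0.70 (limma, adjusted p = 0.0469).

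Stromal and tumour genes gave a few further rises. Col4a1, a collagen of basement membranes, rose by 1.59 ± 0.34 (limma, adjusted p = 0.0180), with 1.73 in MC38 and 1.44 in E0771, and had 0.74 as deposited (adjusted p = 0.0555). It measured 3.04, 5.34, 1.95 and 4.05 times the panel median in hypoxic and 0.99, 0.582, 2.06 and 0.895 times in normoxic MC38 tumours. The E0771 levels were 16.1, 19.7 and 7.55 times in hypoxic and 7.41, 8.33, 2.54, 5.4 and 3.41 times in normoxic tumours. The groups overlapped through MC38 normoxic 10 and E0771 normoxic 17. The fibrillar collagens Col1a1 and Col3a1 had -0.10 and -0.82 and did not pass, and Fap, a protease of activated fibroblasts, fell by 0.92. Msln (mesothelin) rose by 1.67 (0.82 as deposited, not passed), with 2.88 in MC38 and 0.39 in E0771, and was under 2 times the negative probes in 7 tumours. Tnfrsf12a, the receptor of the cytokine TWEAK, rose by 1.60, and its deposited difference of 0.74 did not pass. The epithelial markers Epcam and Cdh1 had -0.72 and -0.69, did not pass, and summed to 0.265 to 1.24 times the panel median in hypoxic against 0.586 to 2.60 times in normoxic MC38 tumours, and to 0.222 to 1.54 against 0.201 to 5.50 times in E0771.

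Genes known for the response to low oxygen rose about as often as the panel did. Of 9 measured genes of the Hif1a and HIF target list 1 rose, where 12.1% of all tested genes did. It was Plaur, the urokinase receptor, with a rise of 1.41 ± 0.36 (limma, adjusted p = 0.0193), or 0.56 as deposited, where it did not pass. The list median was 0.27 relative to the panel and -0.58 as deposited. Hif1a, whose protein rather than transcript is regulated by oxygen, measured 21.5, 17.6, 20.9 and 26.5 times the panel median in hypoxic and 27.1, 8.65, 21 and 10.9 times in normoxic MC38 tumours. Its E0771 levels were 22, 23.7 and 41.8 times in hypoxic and 26.3, 41.4, 13.3, 13.2 and 24.9 times in normoxic tumours. Hypoxic and normoxic tumours overlapped in both lines, and the block fit gave 0.43 ± 0.32 (limma, adjusted p = 0.300). Vegfa, the vascular growth factor and a HIF target, measured 4.67, 1.63, 3.58 and 4.65 times in hypoxic and 4.56, 2.84, 3.55 and 2.78 times in normoxic MC38 tumours. Levels in E0771 were 3.73, 1.86 and 3.59 times in hypoxic and 2.79, 5.09, 1.43, 1.04 and 2.52 times in normoxic tumours. The Vegfa groups overlapped in both lines, and the difference was 0.19 ± 0.33 (adjusted p = 0.657). Cxcr4, Nos2 and Tfrc had -0.17, 0.18 and 1.10 and did not pass. The 9 other listed genes, among them Slc2a1, Ldha and Car9, were not among the genes measured. In the adenosine pathway list, Entpd1 (CD39), which degrades ATP, fell by 0.85 and Dpp4 fell by 1.28. Ada, which encodes adenosine deaminase, rose by 1.43 relative to the panel (0.58 as deposited, not passed). Nt5e (CD73), which makes adenosine, had 0.27 and did not pass.

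**Figure D5:**
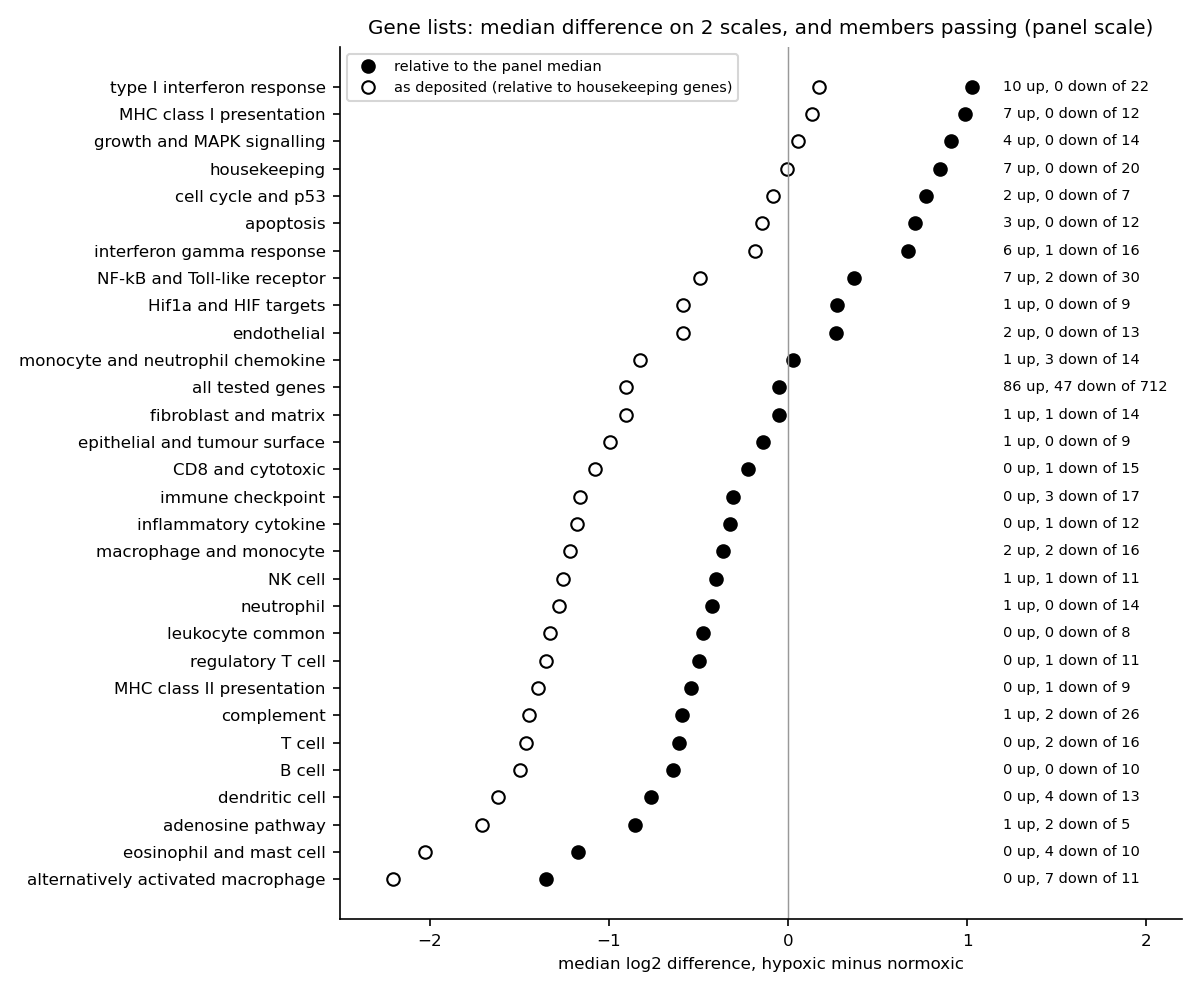
Median log2 difference, hypoxic minus normoxic, of each gene list relative to the panel median (filled) and as deposited (open), with the number of members that passed relative to the panel. Medians of alternatively activated macrophage and eosinophil genes are the lowest on both scales. Interferon gamma, NF-kB, apoptosis, HIF target, endothelial, cell cycle, monocyte and neutrophil chemokine and housekeeping lists lie above 0 relative to the panel and at or below 0 as deposited.

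Some of the remaining lists had a larger share of rises than the 12.1% of all tested genes, on counts of 2 and 3 genes. On the same scale 7 of the 20 housekeeping genes rose. Of 7 cell cycle and p53 genes Trp53 and Rrad rose, by 1.33 and 0.87 relative to the panel, with 0.48 and 0.01 as deposited. Of 12 apoptosis genes Bcl10, Tnfrsf10b and Tnfrsf1a rose, by 0.99, 1.17 and 0.96, with a list median of 0.71 relative to the panel and -0.15 as deposited. Among 16 macrophage and monocyte genes Cx3cr1 and Axl rose, by 0.99 and 1.08 relative to the panel and with 0.13 and 0.22 as deposited, and Ccr2 and Ly86 fell. Of 13 endothelial genes Kdr, the VEGF receptor, and Mcam rose by 0.81 and 0.95 relative to the panel, while their deposited differences were -0.04 and 0.10. Of 14 neutrophil genes only the chemokine Cxcl1 rose, by 1.35 (0.49 as deposited, not passed), and of 12 inflammatory cytokine genes only Tnfsf14, which encodes LIGHT, fell, by 1.22. Of 11 NK cell genes Klrc2 fell by 1.04 and Klra4 rose by 1.35 (not called higher as deposited). Both belong to multigene families whose probes can share sequence.

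In the interaction fit none of the genes with the smallest p passed. Hspb2, a small heat shock protein, had -1.17 ± 0.45 in MC38 and 1.26 ± 0.47 in E0771, a difference of 2.44 ± 0.65 (limma, adjusted p = 0.247). Card9, an adaptor of fungal recognition, and Prg2 differed by 2.63 and 2.93, and the neutrophil chemokine Cxcl5 and the inflammasome sensor Nlrp3 by 2.10 and 1.98, each below 0 in MC38 and above 0 in E0771. Chil3 differed by 3.89 ± 1.17 with the same adjusted p of 0.247. Socs3, an inhibitor of cytokine signalling, had 0.71 in MC38 and 1.62 in E0771, and its interaction did not pass either.

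Single tumours carried much of the count. Leaving out each tumour in turn gave between 2 and 247 genes, with 2 genes without MC38 hypoxic 25, 28 without MC38 normoxic 7 and 37 without E0771 hypoxic 12, against 133. Fewer than 133 by over 1.5 times were also found without MC38 hypoxic 14 (45), MC38 normoxic 4 (56), MC38 normoxic 21 (59), E0771 normoxic 38 (78) and MC38 hypoxic 12 (84). The count rose to 194 without MC38 normoxic 10 and to 247 without E0771 hypoxic 22. It also rose to 192 without E0771 normoxic 17, 145 without E0771 normoxic 4 and 137 without MC38 hypoxic 17. Without the 5 tumours under 350000 counts, 3 hypoxic tumours remained and 0 genes passed in limma, with a smallest adjusted p of 0.195 and 162 genes at an unadjusted p under 0.05. All 133 genes kept their sign in each of these fits, and 75 of them had an unadjusted p under 0.05 in the fit without the 5. Ccl17 and Ccl19 had -1.65 and -1.71 there, and Myc 1.58.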

How the data were processed

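RNA was measured in 16 tumours by NanoString nCounter on the mouse PanCancer Immune panel. Line came from the sample titles and sources and status from the labels. The deposited values are a normalized signal on a linear scale; the sources used here name neither the authors' software and steps nor cartridges or run dates, so batches could not be examined. The values show that each tumour had been multiplied by 1 factor (0.631 to 3.52) that set the geometric mean of the 20 housekeeping genes equal in every tumour, and that genes under 1 had been raised to 1. Background had not been subtracted. Dividing the deposited signal by the factor gave whole counts within 0.1 of a step for 99.9% of values, used for depth and for the count models among the alternatives. No 2 tumours held identical values.

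Genes were tested where their mean signal reached 24.0, the mean plus 2 SD of the scaled negative probes, which kept 712 of 770. log2(value + 1), computed here from the signal the authors deposited, was centred on each tumour's median gene and fitted in limma 3.58.1 (R 4.3.3; lmFit, eBayes with trend) with line and status as terms. A second fit of 4 group means gave the differences in each line and their interaction. Differences of weak genes are understated on this scale. P-values were adjusted by Benjamini-Hochberg over the 712 genes. Panel median and gene count were tested by exact permutation of status within line. Names were matched to GRCm38.p6, 756 by symbol and 8 by synonym, with 6 unmatched. The fit was tested on simulated data.

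The comparison, the 29 gene lists and the alternatives were chosen with earlier results of these data known. Named genes were up to 12 rises and 12 falls by size, those without overlap in either line, a list of general interest, the ends of each gene list and the top of the interaction. Other list members named, Ccl22, Cd163, Socs3 and Fcgr2b among them, were chosen after their values were seen. Alternatives were other centrings, pseudocounts, filters, variance estimates, blocks and thresholds, subtraction of the negative probes, leaving out tumours, and edgeR 4.0.16 and DESeq2 1.42.0 on the recovered counts.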

Additional observations from a re-analysis of the deposited data

Results flagged for a closer look

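Of 435 groups of 4 or 5 tumours, over the 143 named genes, the panel median and the gene count, 18 held a tumour far from the others of its group, judged by Dixon's ratio of the gap to the whole range; chance gives about 1 in 20. MC38 normoxic 10 was the tumour apart for Bcl10 (ratio 0.852), Csf1 (0.839), Ctla4 (0.860), Dpp4 (0.852) and Itgae (0.836). MC38 normoxic 4 was the tumour apart for Ccl24 (0.836), at 62.9 times the panel median, Ccl9 (0.831), Fas (0.862), Fcgr3 (0.924), at 14.5 times, Rrad (0.915), Tcf7 (0.877) and Tlr4 (0.965), at 2.58 times. Among hypoxic MC38 tumours, tumour 17 was apart for Klra4 (0.848), 14 for Ms4a1 (0.905), at 0.027 times the panel median, and 12 for Nos2 (0.842). In E0771, normoxic 71 was apart for Ccr4 (0.790) and normoxic 4 for Cxcl3 (0.843), at 0.032 times, and Cxcl9 (0.791). Ccl24, Ccl9, Fcgr3 and Tlr4 fell in the block fit, and Ccl24, Ccl9 and Fcgr3 passed in 15 of the 16 fits that left out a tumour and Tlr4 in 10.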

How the results depend on the processing

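Relative to the panel, 133 genes passed. Other treatments of scale gave 258 as deposited or when centred on the housekeeping genes (4 higher, 254 lower) and 204 after subtracting the negative probes. Other models gave 48 without the line block, 444 with array quality weights, whose estimation stopped before it converged, 213 in DESeq2 and 166 in edgeR, 119 of which were among the 133 in the same direction. A threshold of 0.10 gave 226. Without the tumours under 350000 counts the count was 0, and fewer tumours entered that fit. Leaving out 1 tumour gave 2 to 247. The other filters, pseudocount, variance estimates, the 4-group mean and the median of tested genes gave 124 to 149. Those of the 133 that were tested kept their sign in every fit named here except that as deposited and on the housekeeping genes, where 128 did; the cause of the differences in count was not tested. The interaction had 0 genes, and 0 to 4 when 1 tumour was left out (4 without MC38 normoxic 10). When 1 tumour was left out, the difference in the panel median level per tumour ran from -1.01 to -0.70 and that in the gene count per tumour before scaling from -284517 to -166978, the latter passing without MC38 hypoxic 17, E0771 hypoxic 55 or E0771 normoxic 65. No paired analysis was possible because no pair of groups compared shares 2 or more mouse numbers; with the mouse number as a random replicate block, 279 genes passed at an estimated correlation of -0.47. Depth limits weak genes: 29 of the 47 lower genes were under 2 times the negative probes in at least 1 tumour, against 3 of the 86 higher ones.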

Other observations

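Genes outside the lists made up further calls, named here after their values were seen. Cebpb, a transcription factor of myeloid and acute phase genes, rose by 1.44 relative to the panel, with 1.57 in MC38 and 1.30 in E0771, and had 0.59 as deposited, where it did not pass. Tgfb1, the cytokine TGF-beta 1, rose by 1.43 and Stat3, a factor downstream of IL-6, by 0.90, while their deposited differences were 0.58 and 0.04 and did not pass. Clu (clusterin), a secreted chaperone, rose by 1.40 (0.55 as deposited, not passed). Pvr and Pvrl2, ligands of the checkpoint receptor Tigit and of the activating receptor Cd226, rose by 1.02 and 1.20 relative to the panel and were not called higher as deposited. Among the lower genes, Cd36, a fatty acid receptor, fell by 1.23, Btk, a kinase of B cells and myeloid cells, by 0.92, and Stat4, a factor of IL-12 signalling, by 1.06.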
